A study of Homo sapiens with 8 samples.

Results

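The centromeric arrays of chromosomes 14 and 22 were described in DNA that was recovered from RPE1 cells with antisense probes against α-satellite RNA. RPE1 is an immortalised human line of retinal pigment epithelium cells, labelled wild type in all libraries. The regions were set by position, with earlier results of these data known. They were all listed peaks on build hs1 that start between 10000000 and 12999999 on chromosome 14 or between 12000000 and 16999999 on chromosome 22. These windows held 4875 of the 65588 peaks in both lists together. The cells labelled Meta, read here as mitotic, gave 1180 peaks on chromosome 14 and 1221 on chromosome 22, out of 33553. The culture labelled Async, asynchronous cells, gave 1175 and 1299, out of 32035. How mitotic cells were obtained is not stated. Each condition had 1 list, made by the authors from the merged Odd and Even α-satellite probe libraries. The labels also name 1 input and 1 Scr library per condition, which were not analysed here. Replicate error could not be had from single lists, so conditions were not tested against each other, and sequencing depth is unknown. Intervals printed below are exact 95% intervals, treat peaks as independent and cover counting error only.

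α-Satellite DNA consists of short monomers in tandem, and in most human arrays a block of several diverged monomers, the higher-order repeat, recurs head to tail with little change from copy to copy. Kinetochores assemble on such arrays, and the arrays are transcribed into RNA that stays close to the centromere. Most chromosomes carry a higher-order repeat of their own, but those of chromosomes 14 and 22, both acrocentric, are so similar that probes for one also stain the other. Short reads from the pair can therefore match both chromosomes. The placement of such reads is not stated, and signal from one array cannot be told apart from signal of the other where their sequences match. Antisense probes can also pair with the DNA itself, so DNA held by RNA cannot be told apart from DNA bound by the probes. No genome sequence of build hs1 was used here, so the regions are given by position, without bases or repeat names.

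The first question was where the peaks lay on each chromosome. On chromosome 14 they formed a single block, and on chromosome 22 a main block with 5 smaller ones around it. Peaks of both lists were joined into a block wherever the stretch free of peaks in both was at most 100 kb. All chromosome 14 peaks fell in 1 block from 10067329 to 12783724, which is 2.72 Mb long. Blocks are called arrays below from their peaks, not from an annotation. On chromosome 22 the main block ran from 12764941 to 15782648, and held 1133 of the 1221 mitotic and 1200 of the 1299 asynchronous peaks. The 5 small blocks lay at 12000353 to 12162096, 12298350 to 12552144, 16338025 to 16339971, 16514409 to 16655172 and 16844628 to 16875024. The first of them begins at the edge of the window. The longest stretch without a mitotic peak, 555376 bp from 15782649 to 16338024, separated the main block from the small blocks on its far side. The asynchronous list was empty there over 561856 bp, from 15776698 to 16338553. On the near side the stretches were 217869 bp in the mitotic list, from 12547072 to 12764940, and 212932 bp in the asynchronous list, from 12552145 to 12765076.

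Coverage varied less along chromosome 14 than along chromosome 22, apart from a sparse far edge that both had. Peaks covered 79.2% of the chromosome 14 block in mitotic cells and 77.9% in asynchronous cells. The chromosome 22 main block was covered over 72.9% in mitotic and 70.7% in asynchronous cells. In both lists these shares ranked 8 and 12 among the main blocks of 23 chromosomes, so chromosome 22 was itself the median block. Over the whole span of the peaks, with the stretches between its blocks, chromosome 22 was covered over 48.2% in mitotic and 46.1% in asynchronous cells. The share of chromosome 14 over that of 22 was then 1.64 in mitotic and 1.69 in asynchronous cells, against 1.09 and 1.10 for the main blocks. In 100 kb bins lying wholly inside the block, chromosome 14 coverage ran between 71.3% and 91.3% in the mitotic list (median 80.1%, SD 5.91 over 26 bins). It ran between 68.2% and 90.5% in the asynchronous list (median 79.7%, SD 6.29). Bins of chromosome 22 ran between 50.5% and 98.7% in the mitotic list (median 67.2%, SD 16.0 over 29 bins) and between 49.7% and 98.4% in the asynchronous list (median 65.4%, SD 17.0). Nearly full bins, covered over at least 90% in both lists, numbered 1 on chromosome 14 and 8 on chromosome 22. Those of chromosome 22 were the bins starting at 12800000 and 12900000 and the 6 from 15100000 to 15699999. Bins covered over less than 70% in both numbered 0 on chromosome 14 and 15 on chromosome 22. The last stretch of each block fills no whole bin and was sparse. From 12700000 to 12783724 on chromosome 14 coverage was 47.4% in mitotic and 39.2% in asynchronous cells, and from 15700000 to 15782648 on chromosome 22 it was 36.3% and 45.2%.

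**Figure D1:**
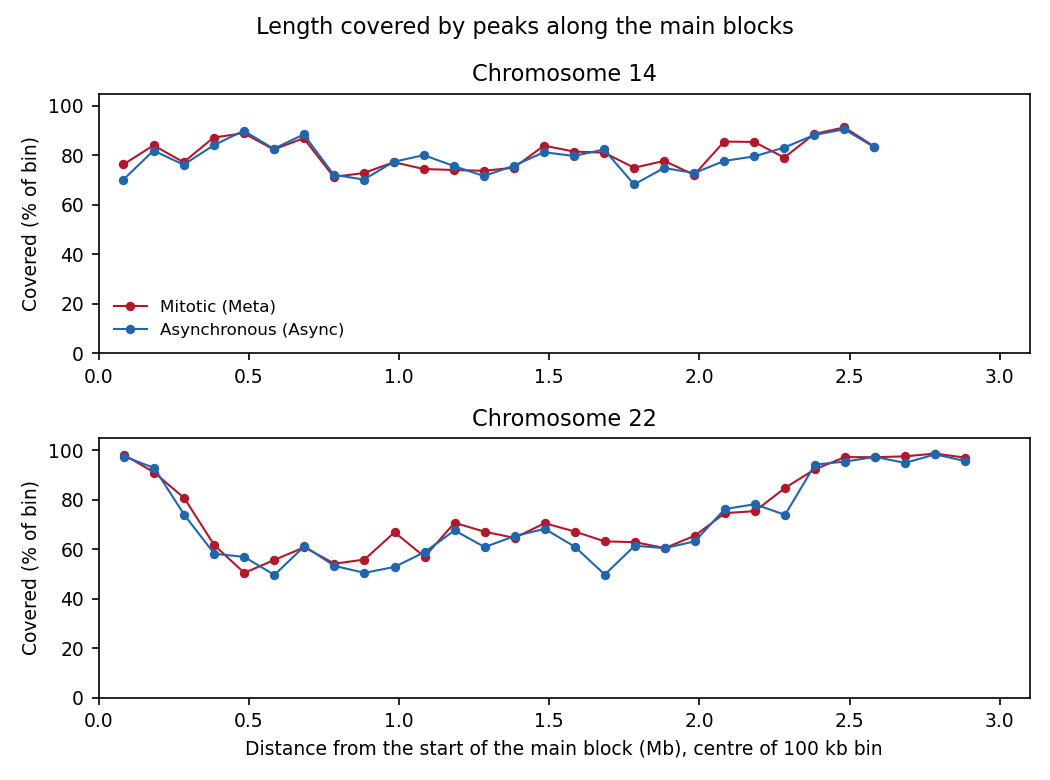
Length covered by listed peaks in each 100 kb bin that lies wholly inside the main block (y axis, % of the bin) against the distance of the bin's centre from the start of the main block (x axis, Mb), for mitotic and asynchronous lists. These bins lie between 68.2% and 91.3% on chromosome 14 and between 49.7% and 98.7% on chromosome 22, where the first 2 and the last 6 exceed 90% in both lists, and the partly filled bins at the edges are not drawn.

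Apart from its far edge, chromosome 22 was sparse in the interior of the array and dense toward its ends. Each main block was cut into 6 parts of equal length, numbered along the chromosome. Parts 1 to 6 of chromosome 22 were covered over 78.6%, 57.4%, 66.3%, 63.2%, 84.4% and 87.7% in the mitotic list. In the asynchronous list they were covered over 76.7%, 54.8%, 63.0%, 59.0%, 82.6% and 88.2%. Both lists thus had their low point in part 2, from 13267892 to 13770843, and their high point in part 6. The 6 parts of chromosome 14 lay between 75.1% and 81.4% in the mitotic list and between 75.9% and 80.3% in the asynchronous list. Among whole bins, the fullest of chromosome 22, from 15500000 to 15599999, was covered over 98.7% in mitotic and 98.4% in asynchronous cells. The bin with the least coverage over both lists, from 13300000 to 13399999, was covered over 55.8% in mitotic and 49.7% in asynchronous cells. The fullest bin of chromosome 14, from 12500000 to 12599999, reached 91.3% in mitotic and 90.5% in asynchronous cells. Least covered was the bin from 10900000 to 10999999, with 72.9% in mitotic and 70.2% in asynchronous cells.

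Where chromosome 22 was dense, its peaks were few and long. Part 6 of its main block held 57 mitotic peaks with a median width of 3687 bp and 72 asynchronous peaks with a median of 3284 bp. Part 2 held 242 mitotic peaks with a median of 848 bp and 255 asynchronous peaks with a median of 845 bp. The longest mitotic peak of the 2 arrays spanned 50293 bp, from 15489853 to 15540145, and the next 34146 bp, from 15396477 to 15430622. The longest asynchronous peaks were 32745 bp, from 15363604 to 15396348, and 27244 bp, from 15464129 to 15491372. All 4 lay in part 6 of chromosome 22. The longest peaks of chromosome 14 were much shorter, 17819 bp in the mitotic list (12480755 to 12498573) and 17042 bp in the asynchronous list (12492803 to 12509844). Over the windows, median width was 1291 bp in mitotic and 1270 bp in asynchronous cells on chromosome 14. It was 1072 and 992 bp on chromosome 22, against 796 and 868 bp in the whole lists.

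Peaks of at least 5 kb carried a larger part of the covered length on chromosome 22. They numbered 56 of 1180 in the mitotic list on chromosome 14 (4.75%, 3.605 to 6.12%), against 4.03% of all mitotic peaks. The asynchronous list had 50 of 1175 there (4.26%, 3.17 to 5.57%), against 3.98% of all asynchronous peaks. On chromosome 22 there were 68 mitotic (5.57%, 4.35 to 7.01%) and 63 asynchronous ones (4.85%, 3.75 to 6.16%). The chromosome 22 ones made up 34.8% of the covered length in mitotic and 32.9% in asynchronous cells, while those of chromosome 14 made up 18.5% and 17.1%.

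Fold enrichment, the authors' ratio of pileup over local background at each peak, was higher on chromosome 14 than on chromosome 22 within each list. In the mitotic list the median was 10.5 on chromosome 14 (10.4 to 10.7) and 8.22 on chromosome 22 (8.08 to 8.43), against 7.98 in the whole list. In the asynchronous list it was 9.20 on chromosome 14 (9.02 to 9.35) and 7.24 on chromosome 22 (7.12 to 7.39), against 7.73. Among the strongest 25% of each whole list the order held in mitotic cells, at 11.7 and 11.3, and turned in asynchronous cells, at 11.01 and 11.2. Chromosome 14 peaks therefore stood above the list median in both conditions, and those of chromosome 22 below it in the asynchronous list. These medians moved with coverage along chromosome 22. Part 2 had a median of 7.71 in mitotic and 6.81 in asynchronous cells, and part 6 had 12.2 and 10.9. The parts of chromosome 14 lay between 10.1 and 11.3 in the mitotic and between 8.82 and 9.998 in the asynchronous list. Over the whole bins, coverage and the bin's median fold enrichment had a Spearman rho of 0.90 in the mitotic and 0.88 in the asynchronous list on chromosome 22 (29 bins). On chromosome 14 rho was 0.50 and 0.77 (26 bins). Both measures of a bin come from the same reads and the same peak calls.

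The single strongest peaks reached similar heights on the 2 chromosomes. The highest fold enrichment in the mitotic list was 16.6 on chromosome 14, at 12538879 to 12540597, and 15.6 on chromosome 22, at 12830776 to 12836395. In the asynchronous list the highest were 15.8 on chromosome 14, at 10474979 to 10475797, and 15.9 on chromosome 22, at 14923704 to 14924494. The lowest listed values were 3.995 and 3.74 in the mitotic list and 3.14 and 2.998 in the asynchronous list, chromosome 14 before 22. Strong peaks were those enriched 6 times or more whose −log10 q was 5 or more. They made up 1136 of the 1180 mitotic peaks on chromosome 14 (96.3%, 95.03 to 97.3%). On chromosome 22 they were 1070 of 1221 (87.6%, 85.7 to 89.4%), against 77.6% of the whole mitotic list. In the asynchronous list they were 1064 of 1175 on chromosome 14 (90.6%, 88.7 to 92.2%) and 958 of 1299 on chromosome 22 (73.7%, 71.3 to 76.1%), with 73.7% in the whole list. Chromosome 22 thus equalled the share of the whole asynchronous list, and chromosome 14 lay above that of both lists.

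Running numbers in the peak names, which follow genome order, are not continuous, and missing numbers were counted as calls that are not listed. The listed peaks of chromosome 14 were 1180 of 1479 numbers in mitotic cells (79.8%) and 1175 of 1519 in asynchronous cells (77.4%). In the main block of chromosome 22 they were 1133 of 1647 (68.8%) and 1200 of 1783 (67.3%). Unlisted calls count as uncovered length here, and their share was larger on chromosome 22. Over the whole lists 22.4% of the mitotic and 42.4% of the asynchronous numbers were listed.

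The second comparison set mitotic against asynchronous cells. The lists of chromosome 14 were nearly alike in number and length. The mitotic list had 1180 peaks over 2152480 bp and the asynchronous list 1175 over 2117339 bp, a ratio of 1.004 in peaks (0.926 to 1.09) and of 1.02 in length. On chromosome 22 the mitotic list had fewer peaks and more length, 1221 over 2349847 bp against 1299 over 2245499 bp in asynchronous cells. The ratio was 0.940 in peaks (0.869 to 1.02) and 1.05 in length. Both intervals of the peak ratios include 1, and among strong peaks that of chromosome 22 turned to 1.12. Over the main blocks of 23 chromosomes the ratio of covered length ranged from 0.906 to 1.11, with 1.02 on chromosome 14 and 1.03 on chromosome 22.

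The extra mitotic length on chromosome 22 lay both in the small blocks and in the interior of the array. The 5 small blocks together were covered over 149854 bp in mitotic and 111990 bp in asynchronous cells, a ratio of 1.34, although they held 88 mitotic and 99 asynchronous peaks. Mitotic length was higher in 5 of the 5, by 1.51 times at 12000353 to 12162096, 1.28 times at 12298350 to 12552144 and 1.29 times at 16514409 to 16655172. The other two were 1947 and 30397 bp long, with ratios of 1.71 and 1.41. Peaks in the small blocks had lower fold enrichment than those of the main block, whose medians were 8.40 in the mitotic and 7.40 in the asynchronous list. The medians of fold enrichment in the 3 longest were 5.70, 7.03 and 6.02 in the mitotic list, and 4.60, 5.67 and 6.04 in the asynchronous list. In the main block, mitotic coverage was higher in 20 of 29 bins on chromosome 22 and in 15 of 26 on chromosome 14, against 45.3% of such bins in all 23 main blocks. The largest gains on chromosome 22 were 14013 bp in the bin starting at 13700000 and 13390 bp in that starting at 14400000. The bins starting at 15700000 and 13200000 had the largest losses, with differences of -7396 and -6467 bp. The largest gains on chromosome 14 were 7839 bp at 12100000 and 6856 bp at 12700000, and the largest losses were differences of -5608 bp at 11100000 and -4072 bp at 12300000. The bins at 15700000 and 12700000 are the last ones of their arrays and are only partly inside.

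Inside the main blocks the single longest stretch without a peak lay near the far edge in each list, and it was longer in the mitotic list. From 12755970 on chromosome 14 the mitotic list had no peak for 18635 bp, up to 12774604, while the longest empty stretch of the asynchronous list was 9684 bp, from 12725121 to 12734804. On chromosome 22 the longest empty mitotic stretch within the main block, 21583 bp from 15728447 to 15750029, was likewise near the far edge. The longest asynchronous one was 9255 bp, from 15760472 to 15769726. On chromosome 14 the second longest stretch was shorter in the mitotic list, at 7732 bp against 9478 bp. On chromosome 22 the second longest were 13333 bp in the mitotic and 6979 bp in the asynchronous list. This last one, from 15048572 to 15055550, lay away from the far edge. The ordinary space between neighbouring peaks did not differ in its median, which was 305 bp on both chromosomes in both lists. Spaces over 1 kb made up 19.9% of those on chromosome 22 in the mitotic and 20.9% in the asynchronous list, against 7.89% and 9.97% on chromosome 14. Peak starts sat 0 to 5 bp past a multiple of 25 bp, 99.5% and 99.1% of them on chromosome 14 and 98.9% and 98.0% on chromosome 22, so spaces and starts are resolved to about that step.

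With all listed peaks, mitotic and asynchronous peaks coincided more closely on chromosome 14 than on chromosome 22. At an overlap of at least 1 bp, 1104 of 1180 mitotic peaks on chromosome 14 met an asynchronous peak (93.6%, 92.0 to 94.9%), against 79.2% of the whole mitotic list. On chromosome 22 it was 998 of 1221 (81.7%, 79.5 to 83.9%). In the other direction 1114 of 1175 asynchronous peaks were met on chromosome 14 (94.8%, 93.4 to 96.0%), against 81.9% of the whole list, and 1079 of 1299 on chromosome 22 (83.1%, 80.9 to 85.1%). The chromosome 22 shares were thus close to those of the lists as a whole. With a reciprocal overlap of at least 50% the shares of mitotic peaks were 70% on chromosome 14 and 49.4% on chromosome 22, against 51.3% of the whole list. Those of asynchronous peaks were 70.3% and 46.4%, against 53.8%. The Jaccard index, shared over combined covered length, was 82.5% on chromosome 14 and 70.3% on chromosome 22. Among the strongest 25% of each list its order turned, to 60.95% on chromosome 14 and 67.2% on chromosome 22. This index and the overlap both increase with coverage by themselves.

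Within chromosome 22 the Jaccard index followed the density, with which it increases by itself. Parts 1 to 6 of its main block had Jaccard indices of 80.2%, 54.1%, 62.1%, 60.5%, 82.6% and 89.9%. The small blocks had 37.6% as a whole, and 16.5% at 12000353 to 12162096. Parts 1 to 6 of chromosome 14 had 85.9%, 85.8%, 80.2%, 80.2%, 79.1% and 83.7%. Bins on chromosome 22 ranged from 47.3% to 97.4%, and those on chromosome 14 from 74.3% to 92.8%.

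Peak starts gave a closer view of the coincidence, since a start can match to the step of the grid. On chromosome 14, 297 of 1180 mitotic starts lay within 25 bp of an asynchronous start (25.2%, 22.7 to 27.7%), against 17% of all mitotic starts. Of the 1221 mitotic starts of chromosome 22 it was 182 (14.9%, 12.95 to 17.03%). Among asynchronous starts the shares were 25.3% on chromosome 14 and 14.01% on chromosome 22, against 17.8% of the whole list. By main block, chromosome 14 ranked 3 among 23 and chromosome 22 ranked 14. Along chromosome 22 these matches did not follow coverage as the Jaccard index did. In parts 1 to 6 they were 12.9%, 19.8%, 16%, 13.3%, 15.5% and 8.77% of mitotic starts. The sparsest part, part 2, thus had the highest share, and the densest, part 6, the lowest, with 5 of 57 starts. Mitotic peak ends matched less often than starts on chromosome 14, at 228 of 1180 (19.3%). On chromosome 22 they matched slightly more often than starts, at 207 of 1221 (16.95%). Of all mitotic ends 15.7% matched. Among asynchronous ends the shares were 19.4% on chromosome 14 and 15.9% on chromosome 22, against 16.4% of the whole list. When the lists were set against each other at offsets up to 6000 bp in steps of 50 bp, chromosome 14 had 297 start pairs at offset 0 and a median of 25 over the offsets. It also had up to 100 pairs near an offset of 2 repeat units of 1366 bp, the unit described next. Chromosome 22 had 182 pairs at offset 0 over a median of 29, and up to 58 near 2 units.

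The last comparison concerned the spacing of peaks along the arrays, where a higher-order repeat can appear as a recurring distance. Distances between starts on chromosome 14 piled up at multiples of about 1366 bp, the leading period of both lists in a scan of periods from 300 to 4000 bp. Within 100 bp of 1 to 5 units the number of start pairs per 51 bp of distance reached 66, 96, 102, 100 and 84 in the mitotic list. It reached 48, 92, 84, 103 and 80 in the asynchronous list. Within 100 bp of the points midway below each of these multiples, the counts reached 24, 26, 23, 28 and 25 in the mitotic list and 25, 28, 25, 29 and 28 in the asynchronous list. The spacing of chromosome 14 had been seen in earlier results of these data, and its values here are a description.

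**Figure D2:**
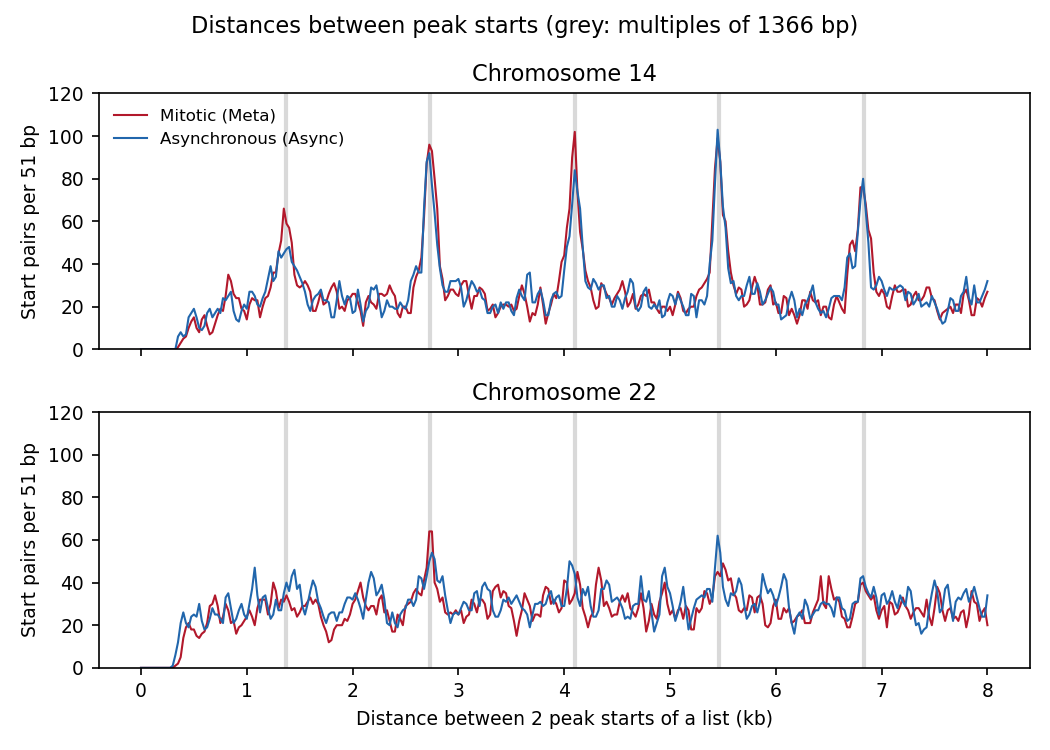
Number of pairs of peak starts per 51 bp of distance (y axis) against the distance between them (x axis, kb), for each chromosome and list, with grey lines at multiples of 1366 bp. Chromosome 14 has sharp maxima of up to 102 mitotic and 103 asynchronous pairs at the lines, while chromosome 22 has smaller ones, up to 64 mitotic and 62 asynchronous pairs.

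On chromosome 22 the counts near whole units were raised far less than on chromosome 14. Among 1 to 5 units they were highest near 2 units in the mitotic and near 4 units in the asynchronous list. The most frequent distance below 5000 bp was 2724 bp in the mitotic list, with 64 pairs, and 2752 bp in the asynchronous list, with 57. For chromosome 14 the counterparts were 4099 bp with 102 pairs and 2725 bp with 92. Within 100 bp of 2 units the counts of chromosome 22 reached 64 in the mitotic and 57 in the asynchronous list, against 40 and 38 around the midway point below. Near 4 units they reached 50 and 62, against 36 and 43. Near 3 units they reached 45 and 52, against 42 and 38, and near 5 units 43 and 47, against 30 and 45. Within 100 bp of 1 unit the counts reached 39 mitotic pairs, at 1273 bp, and 46 asynchronous pairs, at 1450 bp. Around the midway point below they reached 34 and 30. At 1 unit itself there were 26 mitotic and 33 asynchronous pairs. The leading period of chromosome 22 from starts was 680 bp in both lists, with a score of 8.54 in the mitotic and 5.69 in the asynchronous list. The score is the summed cosine of the distances at that period, scaled by the square root of the number of pairs, and at 1366 bp chromosome 14 scored 34.5 and 30.7. From peak ends the period of chromosome 22 became 1362 bp in the mitotic list, with a score of 14.1, and 1360 bp in the asynchronous list, with 8.35. Peak ends of chromosome 14 gave 1368 bp in both lists, with scores of 30.6 and 26.5. The unit of chromosome 22 was thus clearer at its peak ends than at its starts. Over all alternatives its period took values between 340 and 1390 bp. That of chromosome 14 left the range of 1356 to 1368 bp only for the midpoints of mitotic peaks, at 682 bp.

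A second measure used all distances up to 20 kb. A pair of starts was called in phase where its distance lay within 10% of the unit from a whole multiple of 1366 bp, which evenly spread distances would meet in 20% of pairs. On chromosome 14, 3718 of 10503 mitotic pairs (35.4%) and 3334 of 10291 asynchronous pairs (32.4%) were in phase. Those of chromosome 22 were 2405 of 10181 (23.6%) and 2496 of 11121 (22.4%). The unit was taken from the mitotic starts of chromosome 14, so the first value was fitted to it. Pairs share starts and are not independent. From peak ends, 29.8% of mitotic and 28.3% of asynchronous pairs were in phase on chromosome 14, against 25.4% and 23.6% on chromosome 22. From midpoints it was 25.1% and 22.8%, against 21.5% and 21.7%. The chromosomes thus differed less by ends and midpoints than by starts. The surplus from starts faded with distance. On chromosome 14, from 6 to 10 units apart 35.1% of mitotic and 32.7% of asynchronous pairs were in phase, from 21 to 40 units 27.3% and 26.3%, and from 81 to 160 units 20.2% and 21.1%. On chromosome 22 the values were 25.2% and 22.9% from 6 to 10 units, and 20.96% and 21.5% from 21 to 40.

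Seen over all 23 main blocks at this unit, chromosome 14 ranked 1 in both lists. The unit was taken from chromosome 14, which favours its rank, and the blocks were not ranked at periods of their own. Chromosome 22 ranked 3 in the mitotic list with 23.9% and 4 in the asynchronous list with 22.5%. The other 21 main blocks had a median of 19.9% in mitotic and 19.8% in asynchronous cells. Chromosome 17 ranked 2, with 24.7% and 26.4%, and chromosome 20 had 21.5% in the mitotic list, where it ranked 6, and 22.5% in the asynchronous list, where it ranked 3. Chromosomes 13 and 21, the other acrocentric pair with near-identical arrays, had 19.3% and 20% in mitotic cells and 19.3% and 17.4% in asynchronous cells. Only 40 mitotic and 46 asynchronous pairs were available on chromosome 21. A surplus of pairs in phase with 1366 bp was therefore not limited to chromosomes 14 and 22. The measure counts all whole multiples, so it cannot tell a recurrence at 1 unit from one at a multiple of it. On chromosome 17, 10.9% of mitotic and 9.78% of asynchronous steps between neighbouring starts lay within 10% of 1 unit. On chromosome 14 it was 17.98% and 15.3%. This share did not follow the share in phase in all blocks. Chromosome 6 had 15.2% and 12.9% of such steps, with 19.2% and 19.4% of pairs in phase. Chromosome 13 had 14.95% and 14.2% of them, with 19.3% of pairs in phase in both lists.

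**Figure D3:**
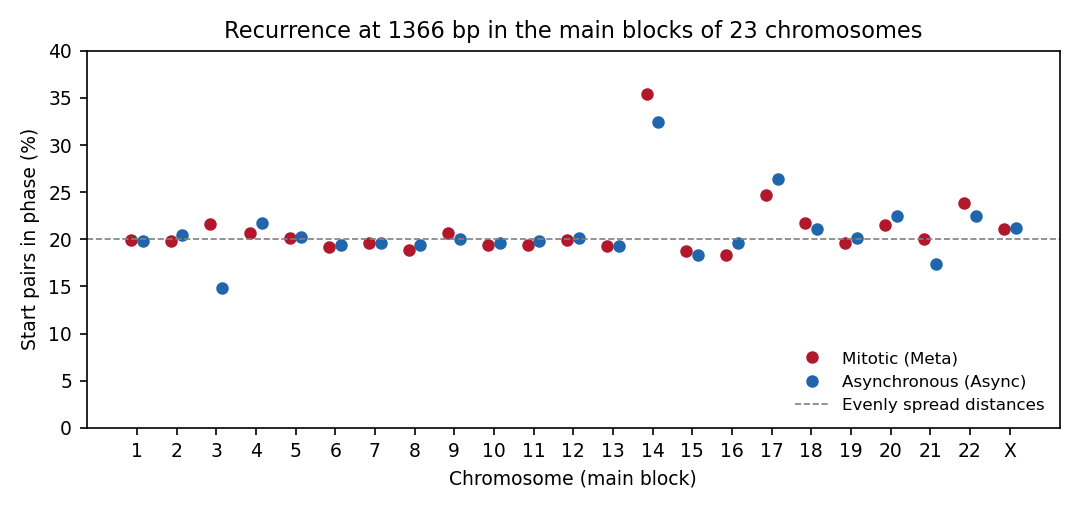
Share of start pairs in phase with 1366 bp (y axis, %) in the main block of each of 23 chromosomes (x axis), for mitotic and asynchronous lists, with a dashed line at the 20% of evenly spread distances. Chromosome 14, from which the unit was taken, stands highest at 35.4% and 32.4%, with chromosome 17 next, and chromosome 22 at 23.9% and 22.5%.

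The recurrence on chromosome 14 was strongest in 1 stretch. In the 100 kb bin starting at 10800000, 83.6% of mitotic and 78.8% of asynchronous start pairs were in phase, and in the next bin 58.5% and 43.0%. Over both bins, from 10800000 to 10999999, there were 110 mitotic and 115 asynchronous peaks, with 68.5% and 57.3% of pairs in phase. Their fold enrichment, with medians of 10.1 and 8.60, was slightly below the 10.5 and 9.20 of the array as a whole. Their coverage, 72.1% and 71.2%, was below the 79.2% and 77.9% of the array. The bin starting at 10900000 was the least covered whole bin of chromosome 14 over both lists. Without this stretch, which was picked after its values had been seen, 31.2% of mitotic and 28.8% of asynchronous pairs were still in phase and the leading period remained 1366 bp in both lists. Over all 26 bins the median was 32.0% in mitotic and 28.2% in asynchronous cells, with 26 mitotic and 23 asynchronous bins above 20%, and 14 and 11 above 30%. On chromosome 22, among bins with at least 100 pairs, the median was 23.5% in mitotic cells (21 bins) and 22.7% in asynchronous cells (20 bins). There 19 mitotic and 18 asynchronous bins lay above 20%, and 0 above 30% in either list. The highest bin there had 29.0% in the mitotic and 28.2% in the asynchronous list, so no stretch like that of chromosome 14 appeared among these bins. The rest of its 29 whole bins lay toward the dense ends of the array and had too few pairs to be judged. Of these, the bin starting at 15500000 had 10 of 21 mitotic pairs in phase (47.6%) and 20.8% of asynchronous pairs.

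**Figure D4:**
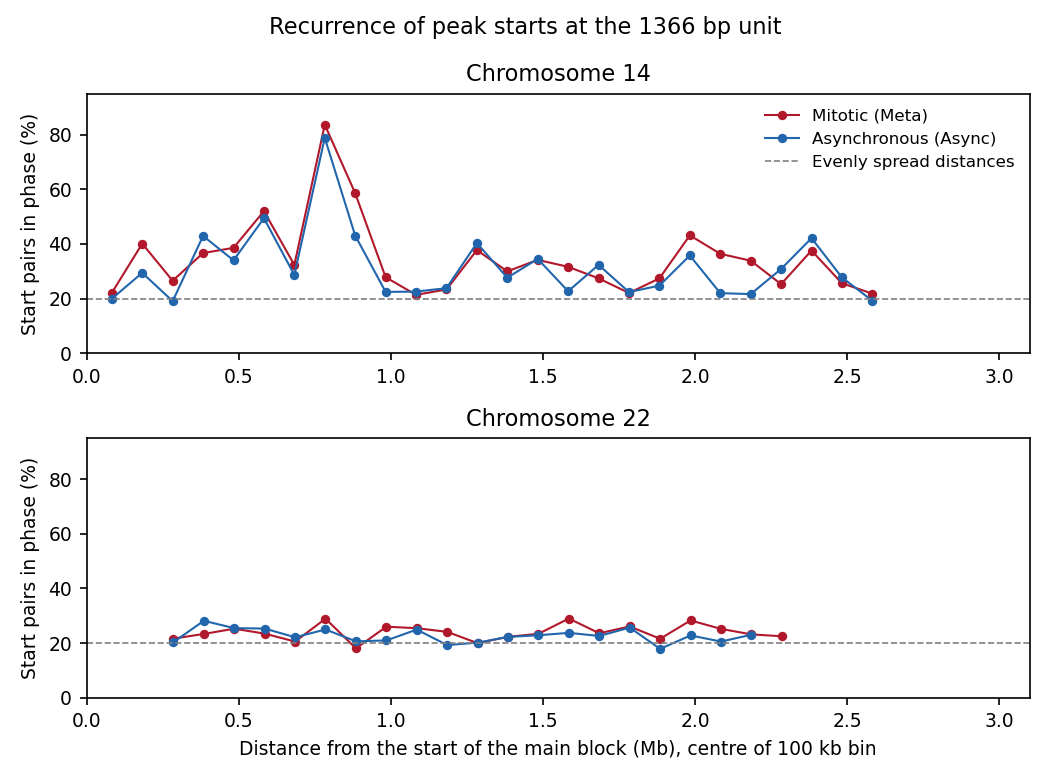
Share of start pairs in phase with 1366 bp (y axis, %) in 100 kb bins with at least 100 pairs, against the distance of the bin's centre from the start of the main block (x axis, Mb), with a dashed line at 20%. On chromosome 14 the bin starting at 10800000 reaches 83.6% in the mitotic and 78.8% in the asynchronous list, and on chromosome 22 no bin drawn exceeds 29.0%.

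Within this stretch single peaks followed each other once per unit. The longest mitotic run of neighbouring starts that were each 1 unit apart, within 10%, had 12 peaks on chromosome 14. They started at 10845728, 10847078, 10848402, 10849777, 10851177, 10852480, 10853854, 10855278, 10856601, 10857976, 10859305 and 10860676. The steps between them lay between 1303 and 1424 bp, with a mean of 1359 bp. These peaks were 642 to 1994 bp wide (median 832 bp), with a fold enrichment between 6.74 and 12.1. The asynchronous list had 12 peaks over the same ground, starting at 10845655, 10847027, 10848376, 10849775, 10851002, 10852528, 10853876, 10855205, 10856628, 10858004, 10859225 and 10860726. Each mitotic start had an asynchronous start within 175 bp, the closest within 2 bp. Not all steps between these asynchronous starts lay within 10% of 1 unit, so they did not form a run of 12. The authors' ratio ranged from 6.52 to 10.8 in these asynchronous peaks.

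The longest asynchronous run on chromosome 14 was shorter, at 8 peaks from 10815679 to 10827472, with steps between 1274 and 1427 bp. On chromosome 22 the longest runs held 5 peaks, from 14720104 to 14726771 in the mitotic list and from 13384534 to 13390619 in the asynchronous list. Steps near 1 unit were 17.98% of all steps between neighbouring starts in mitotic cells on chromosome 14 (15.8 to 20.3%) and 15.3% in asynchronous cells (13.3 to 17.5%). The shares of chromosome 22 were 11.2% (9.44 to 13.2%) and 11.1% (9.37 to 13.01%). Steps near 2 units were 10.9% and 11.4% on chromosome 14 and 6.71% and 6.67% on chromosome 22. In the other 21 main blocks the share of steps near 1 unit had a median of 9.75% in mitotic and 9.78% in asynchronous cells, so chromosome 22 lay close to it. The highest of those blocks had 15.2% and 14.2%.

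**Figure D5:**
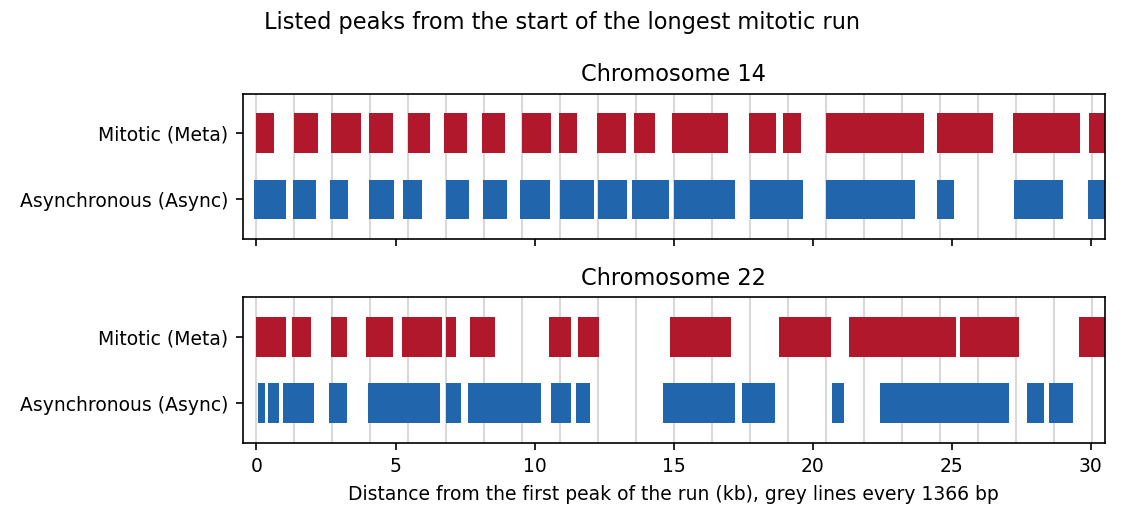
Listed peaks (bars) of the mitotic and asynchronous lists over 30 kb from the first peak of the longest mitotic run on each chromosome (x axis, kb), with grey lines every 1366 bp. On chromosome 14 the 12 mitotic peaks of the run follow the lines, and the 12 asynchronous peaks beside them do so less evenly. On chromosome 22 the run ends after 5 peaks.

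Chromosomes 13 and 21, whose arrays form the other near-identical pair among the acrocentric chromosomes, gave a measure of how far such a pair can differ. Their main blocks were covered over 75.5% and 95.7% in mitotic and 73.7% and 94.7% in asynchronous cells, chromosome 13 before 21. The block of chromosome 21 was 378918 bp long, against 2029172 bp on chromosome 13, and held 21 mitotic and 22 asynchronous peaks. Median fold enrichment was 9.50 and 11.5 in mitotic cells and 7.97 and 11.3 in asynchronous cells. Chromosomes 14 and 22 lay closer to each other in coverage and in the number of peaks than that pair did. Their main-block fold enrichment, 10.5 and 8.40 in mitotic cells, was no closer, while 9.20 and 7.40 in asynchronous cells were closer. The shares of mitotic starts within 25 bp of an asynchronous start were 25.2% and 15.4% against 25.3% and 19.05%. Those of mitotic pairs in phase were 35.4% and 23.9% against 19.3% and 20%, for a unit taken from chromosome 14. Chromosome 21 gave only 21 mitotic peaks and 40 mitotic start pairs. With so few, neither share could tell which pair of chromosomes lay further apart. These differences between chromosomes were not tested, since each list holds every chromosome once.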

How the data were processed

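Genomic DNA recovered by ChIRP, a pull-down with biotinylated antisense probes from sonicated cells, had been sequenced from mitotic and asynchronous RPE1 cells. The labels list 8 libraries in 6 groups, and groups were taken from the sample titles. The submitters' processing notes name fastp, Bowtie2, MACS2 and build hs1. They give no version, setting or control library. The deposited lists were made by the authors from both probe sets merged (Odd and Even), per the labels, so values per probe set were not analysed here. They have no header, and columns were read from their values and from how MACS2 orders a table of broad peaks. The deposited pileup signal, in an unstated scaling, was not used for results. Ranks and limits inside each list used the authors' fold enrichment, a ratio, and their deposited −log10 of the q-value. Further deposited score columns, of unstated meaning, were not used.

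Covered length, overlap (at least 1 bp), blocks (gap of 100 kb), bins of 100 kb, 6 equal parts and distances between starts up to 20 kb were computed with scipy 1.17.1, pandas 2.3.3 and numpy 2.4.6 on Python 3.11.15 and drawn with matplotlib 3.10.9, and the code was tested on simulated data. Distances were counted in a window of 51 bp, and periods were scored in steps of 2 bp after removal of a moving mean of 2001 bp. Shares carry Clopper-Pearson intervals, count ratios exact conditional binomial intervals and medians binomial order intervals. Positions named are the longest and strongest peaks, the longest stretches without a peak, the extreme bins and every block. The windows, the rule for named positions and the alternatives were chosen with earlier results of these data known. The 6 parts, the in-phase measure, the runs and the stretch from 10800000 to 10999999 were chosen after the values were seen. The gene table at hand is of another assembly, and no gene is named.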

Additional observations from a re-analysis of the deposited data

How the results depend on the processing

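No library was left out, since both probe libraries of a condition are merged in 1 list. No paired analysis was possible because each condition has 1 list and the labels carry no replicate numbers. Of 108 values recomputed, 36 stayed the same, 70 moved and 2 turned, and the cause was not tested except where fewer peaks entered by construction. Shares of peaks, peak ratios and medians counted as the same inside the 95% interval of the main value. Distances and periods did so within 25 bp, and values without an interval when equal after rounding. Over the main block, chromosome 14 values were the same by construction, since all its peaks lie in 1 block. Depth is unknown. With strong peaks only, the covered ratio, mitotic over asynchronous, was 1.04 on chromosome 14 and 1.12 on 22, and the peak ratio of chromosome 22 turned to 1.12. The Jaccard index was 81.9% and 69.0%, overlap 75.4% of mitotic peaks on chromosome 22 and 97.1% and 87.2% of asynchronous peaks. Median fold enrichment was 8.64 in the mitotic list on chromosome 22 and 9.48 and 7.97 in the asynchronous list, the covered share of the span of chromosome 14 over 22 was 1.68 (mitotic) and 1.82 (asynchronous), against 1.64 and 1.69 with all peaks, and the period of chromosome 22 was 1366 and 540 bp. With the top 25% by fold enrichment, the covered ratio was 1.37 and 1.22 and the peak ratio 1.46 on chromosome 14 and 1.35 on 22, where it turned. The Jaccard index was 60.95% and 67.2%, so the order of the chromosomes turned, overlap 63.6% and 54.1% (mitotic) and 90.7% and 77.3% (asynchronous). Median fold enrichment was 11.7 and 11.3 (mitotic) and 11.01 and 11.2 (asynchronous), so the order of the chromosomes turned in the asynchronous list. The share of chromosome 14 over 22 was 1.81 and 1.61. The leading distance was 4100 bp (asynchronous, 14), 2254 bp (mitotic, 22) and 1625 bp (asynchronous, 22), and the period of chromosome 22 was 470 and 1378 bp. With peaks of at least 500 bp, the covered ratio of chromosome 22 was 1.06, the Jaccard index 80.9% and 68.9%, and median fold enrichment 8.60 (mitotic, 22), 9.46 (asynchronous, 14) and 7.59 (asynchronous, 22). The share of chromosome 14 over 22 was 1.66 and 1.73, the mitotic leading distance of chromosome 22 was 2750 bp, and its period 1354 and 1390 bp. Over the main block of chromosome 22 alone, the covered ratio was 1.03, the Jaccard index 72.7%, overlap 84.3% and 86.4%, and the share of chromosome 14 over 22 was 1.09 and 1.10. A reciprocal overlap of 50% gave 70% and 49.4% of mitotic and 70.3% and 46.4% of asynchronous peaks, and 50% of the peak's own width gave 91.4% and 75.3%, and 93.2% and 78.5%. Peak ends gave leading distances of 2724 bp (mitotic, 14) and 2724 bp (asynchronous, 22) and a period of 1362 and 1360 bp on chromosome 22. Midpoints gave leading distances of 1339 bp (mitotic, 14), 4090 bp (asynchronous, 14), 1351 bp (mitotic, 22) and 2313 bp (asynchronous, 22). Their periods were 682 bp (mitotic, 14), 340 bp (mitotic, 22) and 1346 bp (asynchronous, 22). The period of chromosome 22 therefore depended on the choice of peaks and of the position in the peak, while that of chromosome 14 stayed between 1356 and 1368 bp in all but the mitotic midpoints. With a tolerance of 5%, added after the data were seen, pairs in phase over the even share were 2.20 (mitotic) and 2.06 (asynchronous) on chromosome 14, and 1.28 and 1.21 on chromosome 22.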
